A study of Rattus with 9 samples.

Results

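The transcriptome of normal rat liver is described here from the 3 libraries of the normal control group, of 9 liver libraries in the study, chosen by the group field of the labels. The animals were Sprague-Dawley rats, an outbred laboratory stock, and liver was taken after 8 weeks of administration in a study of raised blood lipids. What the control animals were given is not stated in the labels, nor are sex, age, diet, feeding state or time of day. Nothing in the labels ties the libraries to different animals, so the spread between them is given as measured and may be partly technical. No control is set against another group, and 3 libraries of 1 group allow no test, so every value below is a description.

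The liver parenchyma consists mainly of hepatocytes, which make most proteins of the blood plasma and export them through the secretory pathway. The same cells clear ammonia as urea, store and release glucose, burn and make fat, make cholesterol and bile acids, and oxidise and conjugate foreign compounds. Many of these functions follow feeding and fasting, the time of day and the position of a cell between the portal and the central vein. Kupffer cells, which are the resident macrophages, sinusoidal endothelium, stellate cells and bile duct cells make up the rest of the tissue.

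Levels are FPKM, fragments per kilobase of gene scaled for the depth of the library, so genes of different length can be set beside each other. The libraries held 16166083, 16617769 and 17966670 reads in replicates 1, 2 and 3, and 3 reads, up to which a gene listed at 0 could still have been present (counting error alone), corresponded to between 0.167 and 0.186 FPKM for a gene of 1 kb. Replicate 1 stood apart in composition. Genes encoded by mitochondrial DNA took 10.6% of its summed FPKM, against 7.25% in replicate 2 and 7.19% in replicate 3. Genes shorter than 200 bases took 6.62% of the summed FPKM in replicate 1, 1.07% in replicate 2 and 1.06% in replicate 3, although they held only 0.243%, 0.0515% and 0.0534% of the reads. Between pairs of libraries, Pearson's r of log2(FPKM + 1) across genes with a mean of at least 1 FPKM was 0.965 for replicates 1 and 2, 0.959 for 1 and 3 and 0.969 for 2 and 3, a description over genes that share libraries.

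Of the 20236 genes in the table, 2277 were at 0 in all 3 libraries and 14745 were above 0 in all 3. A mean of 1 FPKM or more was reached by 10511 genes, 9970 of them protein-coding, and their median was 7.29 FPKM. The top of the distribution was narrow. The 735 genes with a mean of 100 FPKM or more held 77.5% ± 1.25 of the summed FPKM (SD, n = 3, as for all errors here), the 72 genes at 1000 or more held 47.5% ± 2.74, and the 3 genes at 10000 or more held 12.5% ± 0.897. The albumin gene Alb alone held 7.31% ± 0.712 of the summed FPKM, the 10 highest genes held 22.6% ± 1.87, and the 100 highest 51.7% ± 2.87. These 10 include AABR07015081.1, a gene of 57 bases at 24117, 470 and 711 FPKM. AABR07063425.1 and AABR07063425.2, also of 57 bases, count among the 72 genes through replicate 1 alone. It took 67 genes to make up 50% of the summed FPKM in replicate 1, 91 genes in replicate 2 and 99 genes in replicate 3, so the library with the larger mitochondrial and short-gene shares was also the most concentrated. Leaving replicate 1 out, the 100 highest genes held 50.4%. Without mitochondrially encoded genes they held 49.0%.

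**Figure D1:**
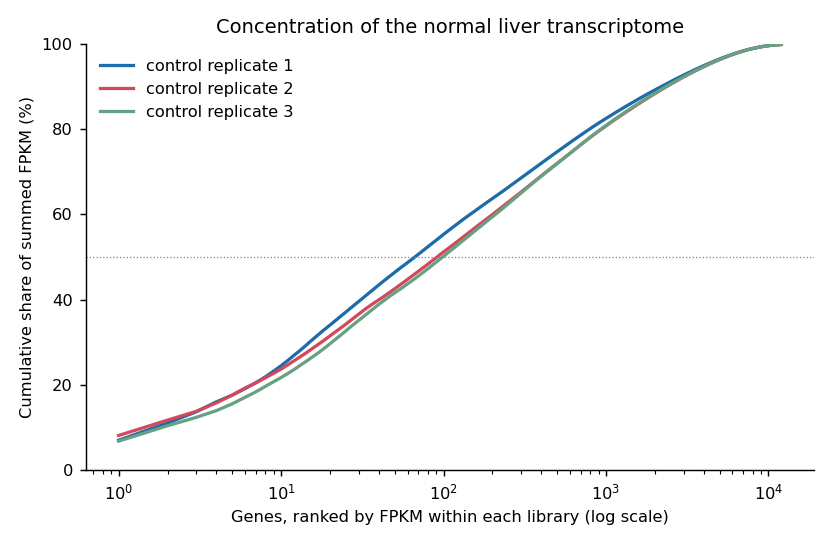
Cumulative share of the summed FPKM (%) against the number of genes, ranked by FPKM within each library on a log axis, with 1 line per normal control library. The 50% level, drawn as a dotted line, is reached after 67 genes in replicate 1, 91 in replicate 2 and 99 in replicate 3.

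Plasma proteins took the first place. The 6 lists of mainly secreted proteins were carriers, protease inhibitors, coagulation, complement, acute phase proteins and apolipoproteins. A few of their members, such as Mttp, Scarb1 and Vkorc1, encode proteins that are not secreted. The 134 genes of these lists held 34.6% ± 1.82 of the summed FPKM and 36.5% ± 0.606 of the reads. The 27 carriers alone held 18.4% ± 1.42. Alb, which encodes albumin, the main carrier and osmotic protein of plasma, had 41786, 45551 and 39271 FPKM in replicates 1, 2 and 3 and took 8.73% of the reads. It was the highest gene in every library, with an SD of 0.11 on the log2(FPKM + 1) scale. Tf, encoding the iron carrier transferrin, averaged 9952 ± 1300 FPKM. Ttr, the carrier of thyroxine and of retinol-binding protein, averaged 9419 ± 1645 FPKM, and Rbp4, its retinol-carrying partner, 5757 ± 443 FPKM. Gc, the vitamin D-binding protein, had 7188, 5526 and 5283 FPKM, and was highest in replicate 1. Selenop, which carries selenium to other organs, had 4225, 2711 and 2374 FPKM and followed the same order. Afp, the fetal counterpart of albumin that lies beside Alb on chromosome 14 (the group of genes spans 19078680 to 19191863, build Rnor_6.0), had 12.3, 8.50 and 6.01 FPKM. Hpx, the heme carrier hemopexin, held 5046, 4626 and 4879 FPKM, and Ambp, the precursor of alpha-1-microglobulin and bikunin, 4850, 6832 and 5108 FPKM.

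**Figure D2:**
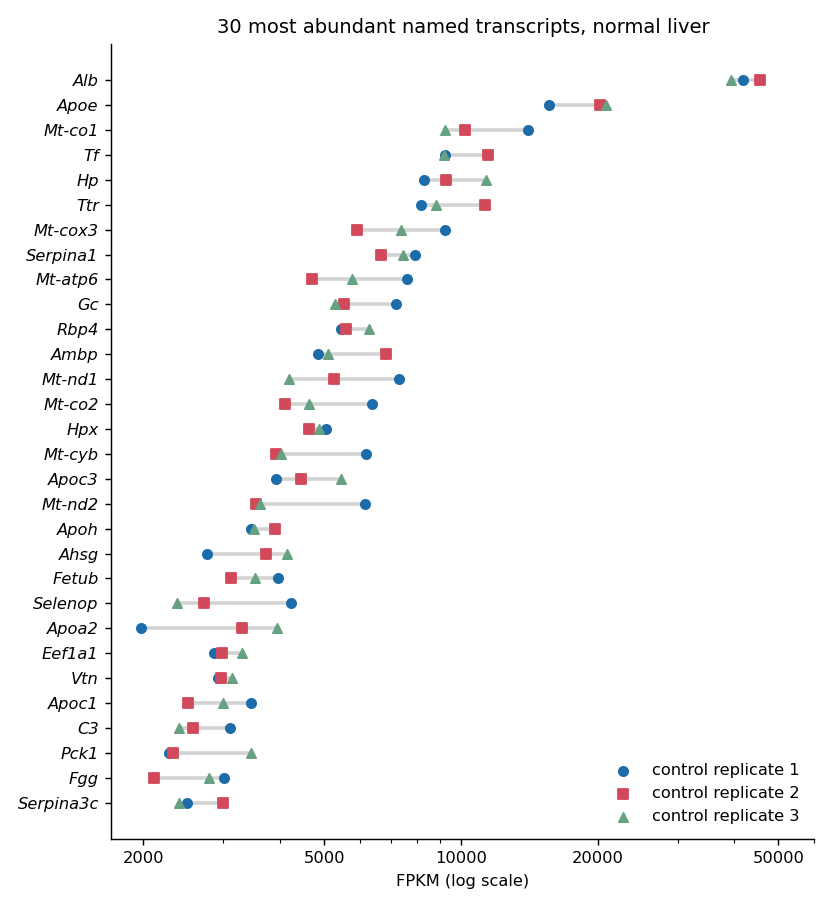
FPKM on a log axis of the 30 highest genes with a gene symbol, in each of the 3 normal control libraries (symbols), with a grey line over their range. Alb lies between 39271 and 45551 FPKM, and the 7 mitochondrially encoded genes shown are highest in replicate 1.

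The 24 apolipoprotein and lipoprotein genes held 6.20% ± 0.866 of the summed FPKM, 5.23% in replicate 1, 6.49% in replicate 2 and 6.88% in replicate 3. Apoe, which directs remnant lipoproteins to hepatic receptors, gave 52.9% of the list. It had 15648, 20228 and 20822 FPKM, lowest in replicate 1. Genome positions are given for a few gene clusters chosen after their values were seen. Apoe lies at the end of a cluster on chromosome 1 (80589023 to 80617057, build Rnor_6.0) that also holds Apoc1, Apoc4 and Apoc2, and its neighbours did not share that order. Apoc1 had 3442, 2507 and 2992 FPKM and Apoc2, the activator of lipoprotein lipase, 1441, 1243 and 1192 FPKM, both highest in replicate 1. Apoc4 had 583, 492 and 866 FPKM, highest in replicate 3 as Apoe was, but lowest in replicate 2. Another cluster, on chromosome 8 (50525091 to 50561736) holds Apoa1, Apoc3, Apoa4 and Apoa5. Apoc3, an inhibitor of triglyceride clearance, averaged 4596 ± 777 FPKM. Apoa1, the main protein of HDL, averaged 1069 ± 83.6 FPKM, and Apoa2, its HDL companion on another chromosome, had 1978, 3293 and 3933 FPKM. Apob, the structural protein of VLDL, had 238, 180 and 163 FPKM. Because its transcript is long, its share of the reads was larger than its level per length, with 57644, 44869 and 43742 reads.

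Protease inhibitors (22 genes) held 3.82% ± 0.0378 of the summed FPKM, the steadiest share of the 6 lists. Serpina1, encoding alpha-1-antitrypsin, made up 33.3% of the list with 7939, 6656 and 7441 FPKM. Serpina3c averaged 2626 ± 319 FPKM and 2 heavy chains of inter-alpha-trypsin inhibitor, Itih3 and Itih4, 1904 ± 197 and 1654 ± 104 FPKM. Kng1, which the table annotates as T-kininogen 2, had 1267, 399 and 796 FPKM and the largest spread of the list. The rat has several near-identical kininogen genes, so this value is uncertain. LOC500712, whose deposited protein match is serine protease inhibitor A3L, is not in the list and averaged 1143 ± 27.8 FPKM (0.198%).

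Coagulation factors (21 genes) held 2.27% ± 0.177. The 3 fibrinogen chains lie together on chromosome 2 (181987217 to 182038178), and each was lowest in replicate 2. Fgg had 3014, 2107 and 2789 FPKM, Fga 2289, 1409 and 2045 FPKM and Fgb 2205, 1380 and 2382 FPKM. F2, encoding prothrombin, was instead lowest in replicate 1, with 1360, 1683 and 1696 FPKM, while F7, which starts the extrinsic pathway, was a low member at 38.6, 50.6 and 94.8 FPKM.

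The 27 complement genes held 1.39% ± 0.0541 of the summed FPKM but 2.59% of the reads, since C3, the central component, is a long transcript that gave 33.4% of the list. C3 had 3096, 2565 and 2389 FPKM. C1qb and C1qc, which macrophages rather than hepatocytes express, varied most, with 60.5, 72.1 and 126 FPKM for C1qb and 72.4, 109 and 156 FPKM for C1qc, and were highest in replicate 3.

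The 13 acute phase genes held 2.52% ± 0.337, of which Hp, the hemoglobin carrier haptoglobin, gave 66.4%. Hp had 8303, 9286 and 11337 FPKM, highest in replicate 3. Hamp, the iron hormone hepcidin, followed with 2110, 1544 and 2672 FPKM, and Crp with 1138, 952 and 868 FPKM. Il1rn, the interleukin 1 receptor antagonist, was the most variable member, with 21.1, 13.5 and 108 FPKM.

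Genes of mitochondrial DNA came next. The 16 listed genes held 8.35% ± 1.96 of the summed FPKM and 4.91% of the reads. All 16 were highest in replicate 1. Over all 10511 genes at 1 FPKM or more, 35.8% were highest in replicate 1, 29.0% in replicate 2 and 35.2% in replicate 3, and 38.7%, 29.8% and 31.5% were lowest in them. Every count of highest or lowest members here is to be read against these shares. Mt-co1, a catalytic subunit of cytochrome c oxidase, had 14055, 10186 and 9211 FPKM, Mt-cox3 of the same complex 9213, 5902 and 7372 FPKM, and Mt-atp6 of the ATP synthase 7600, 4710 and 5766 FPKM. The complex I subunits spanned a wide range, with Mt-nd1 at 5580 ± 1589 FPKM and Mt-nd4 at 240 ± 134 FPKM. Mt-atp8 had 7.88, 5.90 and 0.273 FPKM, far below Mt-atp6, whose transcript it shares. The 2 annotated genes overlap by 43 bases, and the labels do not say how reads on such overlaps were assigned.

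The nuclear subunits of the respiratory chain and ATP synthase had another order. The 94 genes of this list, which also holds assembly factors such as Ndufaf1, took 1.77% ± 0.231. Of the 85 members at 1 FPKM or more, 53 (62.4%) were highest in replicate 3, against 35.2% of all genes. In replicate 1, 15 (17.6%) were highest, against 35.8%. Atp5b, a catalytic subunit of the ATP synthase, averaged 722 ± 89.9 FPKM. Cox4i1, a nuclear subunit of cytochrome c oxidase, had 501, 578 and 925 FPKM, an order unlike that of Mt-co1.

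Among the metabolic lists, amino acid breakdown held the largest mean share, but not in every library. In replicate 2 it held 2.472%, against 2.497% for the cytochrome P450 list described below. That P450 list also leaves out AABR07004549.1 (0.207%) and LOC100361547 (0.1215%), whose deposited best match is Cyp2c7. The 64 amino acid breakdown genes, all at 1 FPKM or more, took 2.79% ± 0.300 of the summed FPKM. Hpd, of tyrosine breakdown, averaged 1558 ± 355 FPKM, Mat1a, which makes S-adenosylmethionine, 1427 ± 436 FPKM, and Tat, which starts tyrosine breakdown, 1161 ± 201 FPKM. The 11 urea cycle and ammonia genes added 0.793% ± 0.205. Ass1, which joins citrulline and aspartate, had 1871, 955 and 2120 FPKM, Arg1, which releases urea, 931, 640 and 919 FPKM, and Cps1, the entry enzyme, 725, 381 and 617 FPKM, all 3 lowest in replicate 2.

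Cytochrome P450 genes of families 1 to 4 and their partners (55 genes) held 2.42% ± 0.143. Cyp2e1, which oxidises ethanol and small solvents, had 2243, 1578 and 2445 FPKM, Cyp3a2, of steroid and drug oxidation, 2151, 1969 and 1194 FPKM, and Cyp2d2 1089, 1141 and 1222 FPKM. Of the 55 genes, 36 reached 1 FPKM and 4 were at 0 in all 3 libraries. Conjugation and other drug metabolism (78 genes) held 2.07% ± 0.266, led by Mgst1, a microsomal glutathione transferase, at 1376 ± 112 FPKM, Adh1, an alcohol dehydrogenase, at 1186 ± 301 FPKM and Gstm1, a cytosolic glutathione transferase, at 1162 ± 318 FPKM.

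Fat was represented more by its oxidation than by its synthesis. The 40 genes of fatty acid oxidation and ketogenesis held 1.79% ± 0.253 and the 29 of fatty acid and triglyceride synthesis 0.262% ± 0.0671. Fabp1, the fatty acid-binding protein of hepatocytes, had 2617, 2807 and 1860 FPKM, lowest in replicate 3. In the synthesis list the highest member was G0s2, an inhibitor of the lipase ATGL, at 306 ± 97.5 FPKM. Fasn, the fatty acid synthase, had only 2.21, 9.33 and 2.63 FPKM.

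Glucose, fructose and glycogen genes (35) held 1.52% ± 0.157. Pck1, the committed enzyme of gluconeogenesis, gave 30.7% of the list with 2277, 2320 and 3451 FPKM, highest in replicate 3. Bile acid synthesis and transport (22 genes) held 0.636% ± 0.0442, led by Baat, which conjugates bile acids to amino acids, at 631 ± 119 FPKM. Cholesterol synthesis and uptake (28 genes) held 0.184% ± 0.0457, with a median member at 22.1 FPKM.

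**Figure D3:**
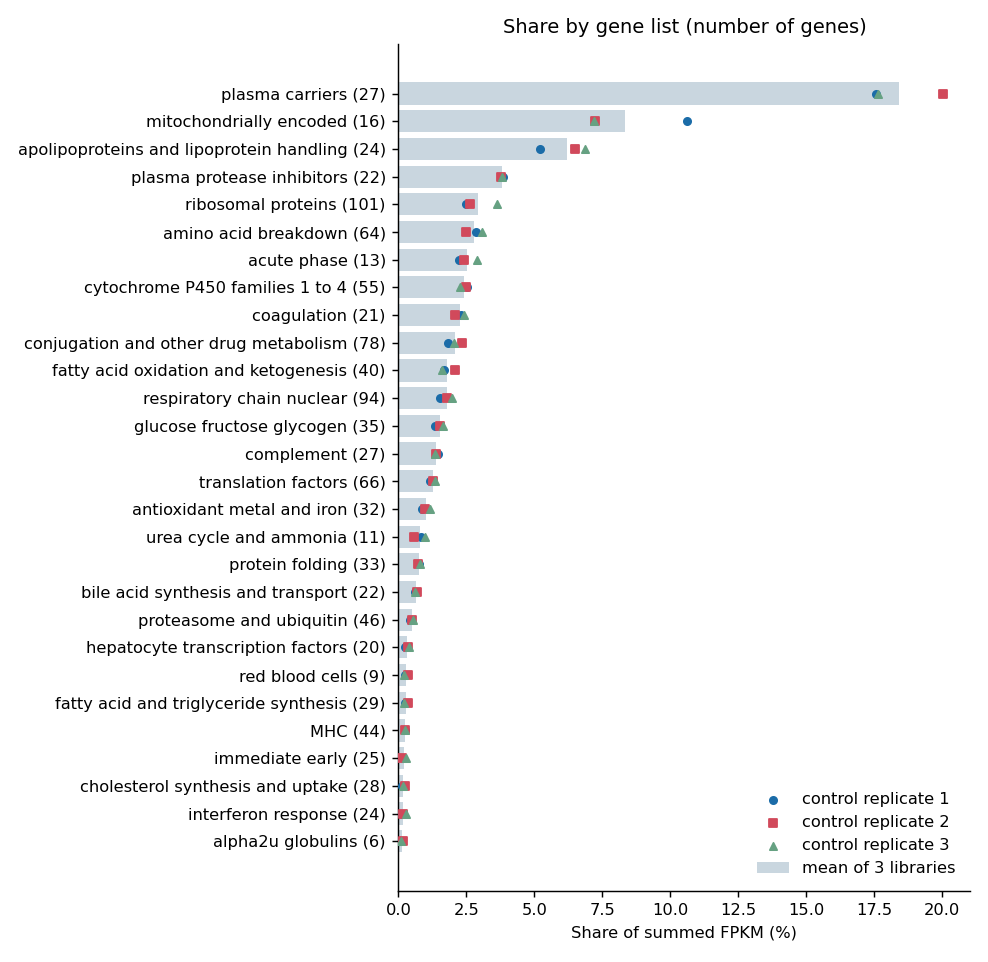
Share of the summed FPKM (%) held by each gene list with at least 0.1%, as the mean of 3 normal control libraries (bars) and in each library (symbols); the number of genes stands in parentheses. Plasma carriers lead with 18.4%, followed by mitochondrially encoded genes with 8.35%, where replicate 1 is the highest.

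The machinery that makes and folds proteins took less than its products. Genes of the cytosolic ribosome (101) held 2.92% ± 0.631, with 2.47% in replicate 1, 2.65% in replicate 2 and 3.64% in replicate 3. Rps2 and Rpl10 were the highest, at 716 ± 99.7 and 651 ± 135 FPKM. Many ribosomal protein genes have processed copies in the genome, so single values are uncertain. Translation factors and their regulators (66 genes) held 1.26% ± 0.0944, of which Eef1a1, the elongation factor that brings aminoacyl-tRNA to the ribosome, gave 41.9% with 2858, 2976 and 3298 FPKM. Chaperones and folding enzymes held 0.754% ± 0.0370, and the proteasome and ubiquitin list 0.493% ± 0.0587. Antioxidant, metal and iron genes held 1.01% ± 0.158, led by Gpx1, a peroxidase with selenium, at 710, 1206 and 1626 FPKM, Cat, encoding catalase, at 1076, 1071 and 694 FPKM, and Sod1 at 933 ± 152 FPKM. LOC100360087, whose deposited match is a ferritin light chain, is not in the antioxidant, metal and iron list and averaged 1400 ± 250 FPKM (0.243%). The 40 lists, in which no gene was counted more than once, together held 65.2% ± 1.26 of the summed FPKM with 1150 genes.

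The deposited gene ontology terms gave a similar picture without chosen lists, though a gene can carry several terms. Genes annotated to the extracellular space were 494 of the 10511 at 1 FPKM or more, or 4.70%, and held 32.1% ± 2.17 of the summed FPKM. The 49 genes annotated to blood microparticles, a term for proteins found on particles in plasma, held 11.6% ± 1.26. Genes annotated to the endoplasmic reticulum were 4.63% of the genes and held 9.12% ± 0.966, and those annotated to the mitochondrion were 9.52% and held 14.2% ± 0.452. Nuclear proteins were in the opposite position, with 27.7% of the genes and 13.6% ± 0.839 of the summed FPKM.

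Defining markers of hepatocytes were present at high levels in the tissue labelled liver, with Hnf4a, a transcription factor of hepatocytes, at 122, 155 and 137 FPKM beside Alb, Ttr, Apoa1, Cps1 and Cyp2e1 above. Markers of other liver cells were low. In all 3 libraries together, 80 such markers held 0.144% ± 0.0242 of the summed FPKM, 0.122% in replicate 1, 0.140% in replicate 2 and 0.169% in replicate 3. In a bulk sample fewer cells of a type and less RNA per cell cannot be told apart. Kupffer cell markers included Clec4f at 79.2, 76.3 and 168 FPKM, Cd5l at 49.8, 70.3 and 83.1 FPKM and Marco, a scavenger receptor, at 18.3, 44.6 and 45.7 FPKM. Clec4g of sinusoidal endothelium averaged 51.5 ± 9.49 FPKM and Stab2, a hyaluronan receptor of the same cells, 3.84 FPKM. Stellate cell markers Colec11 and Lrat averaged 47.2 ± 2.74 and 2.14 FPKM. Of the bile duct keratins, Krt19 averaged 0.501 ± 0.0506 FPKM and Krt7 was above 0 in replicate 2 only, at 0.0583 FPKM. Epcam, another bile duct marker, was higher, with 4.17, 7.77 and 5.025 FPKM. Of the 10 bile duct markers, 2 reached a mean of 1 FPKM.

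Blood cells were represented mainly by globins. The copy of Hba-a2 with the higher level had 958, 1278 and 753 FPKM and Hbb 174, 260 and 212 FPKM, highest in replicate 2, and near-identical globin copies make the split between them uncertain. S100a8 and S100a9 of neutrophils were at or below 1.71 FPKM in each library. Markers of neighbouring organs held 0.00654% ± 0.00169. Prss1 and Cpa1 of the exocrine pancreas and Ckm and Mb of muscle were at 0 in all 3 libraries, and Umod of kidney was above 0 in replicate 1 only. Cela1, an elastase also named for the pancreas, was an exception, with 11.8, 10.8 and 9.87 FPKM. The 6 adipose tissue markers summed to 13.5 FPKM in replicate 1, 22.0 FPKM in replicate 2 and 33.0 FPKM in replicate 3. The leading gene of that list gave 90.1% of it, so the sum follows 1 gene. Of the 6, 2 were at 0 in all 3 libraries. Plin1, a defining marker of adipose tissue, was above 0 in replicate 3 only, at 0.0186 FPKM.

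Spread among the 3 libraries was read on the log2(FPKM + 1) scale for the 10511 genes at 1 FPKM or more. The median SD was 0.23, against 0.07 from the counting of reads alone. In 69.6% of the genes the SD exceeded 2 times the counting SD, and in the 72 genes at 1000 FPKM or more this share was 100%. The highest library was at least 2-fold above the lowest in 940 of 10511 genes, or 8.94%, and this share is the background for every count of list members below. Replicate 3 was the odd library, standing high, in 240 of the 940 genes and standing low in 111. Replicate 1 stood low in 173 and high in 140, and replicate 2 stood high in 144 and low in 132. With replicate 1, 2 or 3 left out, 456, 527 or 452 of the same 10511 genes were 2-fold apart, so each pair of libraries gave a count of similar size.

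**Figure D4:**
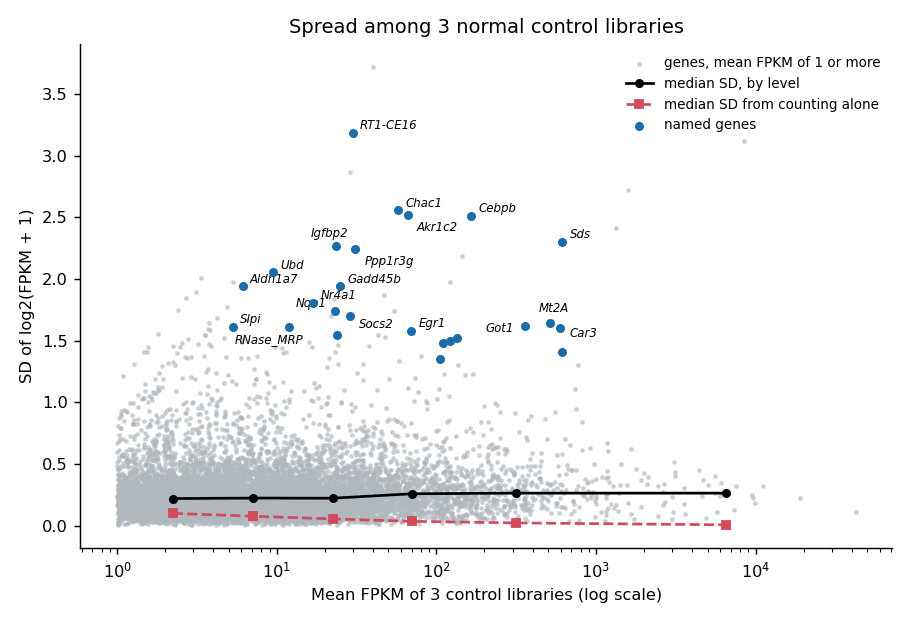
SD of log2(FPKM + 1) over 3 normal control libraries against mean FPKM on a log axis. Grey points are genes at 1 FPKM or more, blue points the genes with the largest SD at a mean of at least 5 or 100 FPKM, the black line the median SD by level and the red dashed line the median SD that counting alone gives. The observed median stays between 0.22 and 0.26 at every level while the counting SD falls to 0.01 at 1000 FPKM or more.

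Among genes with a symbol and a mean of 5 FPKM or more, the largest SD belonged to RT1-CE16, a class I gene of the rat MHC, with 0, 37.9 and 52.0 FPKM (SD 3.19 on the log2 scale). Genes of this region are polymorphic and near-identical copies of each other, and the table holds another gene of the same name with 3.99, 6.33 and 8.29 FPKM, so both values are uncertain. It was followed by Chac1, an enzyme that degrades glutathione, with 10.8, 4.41 and 158 FPKM, by Akr1c2, an aldo-keto reductase, with 3.78, 107 and 87.7 FPKM, and by Cebpb, a transcription factor of hepatocytes, with 20.03, 22.7 and 454 FPKM. These values show either a single high library (Chac1 and Cebpb in replicate 3) or a single low one (RT1-CE16 and Akr1c2 in replicate 1).

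Replicate 3 alone was also high in Igfbp2, an insulin-like growth factor-binding protein, with 4.01, 2.73 and 63.9 FPKM, in Gadd45b, a stress-induced gene, with 5.52, 5.14 and 64.0 FPKM, and in Nr4a1, an orphan nuclear receptor, with 6.00, 2.87 and 41.7 FPKM. Inmt, a methyltransferase, had 10.1, 6.41 and 55.2 FPKM. Replicate 2 was the low library in a further group. Sds, which turns serine into pyruvate, had 905, 55.7 and 885 FPKM, and Got1, the cytosolic aspartate aminotransferase, 626, 72.8 and 380 FPKM. Mt2A, a metallothionein, had 528, 102 and 913 FPKM. Socs2, an inhibitor of growth hormone signalling, had 51.1, 4.53 and 30.9 FPKM, Nqo1, a quinone reductase, 18.6, 3.43 and 47.5 FPKM, and Ppp1r3g, a glycogen-targeting phosphatase subunit, 18.5, 2.31 and 72.5 FPKM. Replicate 2 was thus the lowest in each of these, while replicates 1 and 3 held different orders.

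At a mean of 100 FPKM or more the list of variable genes also held Car3, a carbonic anhydrase, with 1104, 556 and 124 FPKM, Aox1, aldehyde oxidase, with 30.1, 240 and 132 FPKM, Aldh1a1, a retinaldehyde dehydrogenase, with 25.7, 192 and 112 FPKM, and Reep6 with 27.6, 143 and 145 FPKM. The last 3 were lowest in replicate 1. Igfbp1, a binding protein that insulin represses, had 436, 172 and 1215 FPKM. Rpl30, a ribosomal protein gene, had 28.6, 113 and 225 FPKM, the widest spread among the 92 ribosomal protein genes at 1 FPKM or more.

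Of the cholesterol genes, 17 of 28 were past 2-fold (60.7%, background 8.94%), with a median SD of 0.61 against 0.23 over all genes. Replicate 2 was the highest library in 24 of the 28 (85.7%), against 29.0% of all genes. Cyp51, a sterol demethylase, had 17.0, 46.8 and 11.4 FPKM, and Msmo1, which follows it, 9.27, 35.7 and 8.10 FPKM. Srebf2, the transcription factor of the pathway, was also highest in replicate 2, with 9.03, 21.7 and 10.6 FPKM. Insig1 and Insig2, which hold that factor in the endoplasmic reticulum, were not highest there. Insig1 had 211, 96.3 and 150 FPKM, lowest in replicate 2, and Insig2 142, 201 and 292 FPKM. Without replicate 2 only 1 of the 28 genes was past 2-fold (background then 5.01%), so the count rests on that library. Without replicate 1 it was 11 of 28 and without replicate 3 16 of 28.

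Genes known to be higher after feeding showed the same library. All 10 with 1 FPKM or more were highest in replicate 2, and 6 were past 2-fold. Scd, a fatty acid desaturase, had 39.2, 65.7 and 8.51 FPKM, and Srebf1, the transcription factor of fat synthesis, 25.3, 49.4 and 19.3 FPKM. Angptl8, a feeding-induced regulator of lipoprotein lipase, had 15.1, 57.0 and 44.3 FPKM. Without replicate 2, 2 of the 10 were past 2-fold. The fasting genes did not simply mirror them. Of 10, 4 were past 2-fold and 6 were highest in replicate 3 (60.0%, against 35.2% of all genes), among them Igfbp1 above, G6pc, the last enzyme of glucose release, with 261, 223 and 697 FPKM, and Pdk4, which restrains pyruvate oxidation, with 62.9, 40.7 and 114 FPKM. Without replicate 3, 2 of the 10 were past 2-fold. The feeding state of the animals is not in the labels, and its part in these values was not tested.

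Immediate early genes, which respond within minutes to stimuli and to handling of tissue, had 14 of 23 members past 2-fold (60.9%), 14 highest in replicate 3 (60.9%, against 35.2% of all genes) and 1 in replicate 2 (4.35%, against 29.0%). The 8 highest in replicate 1 (34.8%) were near the 35.8% of all genes. They did not form a single pattern. Jun had 50.9, 52.9 and 231 FPKM and Jund 42.6, 74.2 and 197 FPKM, with Gadd45b and Nr4a1 as above, all highest in replicate 3. Egr1 had 156, 17.9 and 33.5 FPKM, Fos 50.5, 5.79 and 16.01 FPKM and Fosb 11.4, 0.515 and 0.789 FPKM, all highest in replicate 1. Without replicate 3, 5 of the 23 were past 2-fold (background then 4.30%). Of the 8 amino acid response genes at 1 FPKM or more, 4 were past 2-fold, with Chac1 above and Slc38a2, an amino acid transporter, at 86.8, 27.2 and 115 FPKM, while Atf4, the transcription factor of that response, had 57.3, 65.8 and 77.1 FPKM. Without replicate 2, 1 of the 8 was past 2-fold, and without replicate 3, 2 of the 8.

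Of the 11 urea cycle and ammonia genes, 6 were lowest in replicate 2 (54.5%, against 29.8% of all genes) and 4 were highest there (36.4%, against 29.0%). Asl, which splits argininosuccinate, had 430, 271 and 964 FPKM and the sum of the 11 genes was 5012 FPKM in replicate 1, 3181 FPKM in replicate 2 and 5599 FPKM in replicate 3. Members past 2-fold were 4 of 11 (36.4%), 2 of 11 without replicate 2 and 1 of 11 without replicate 3. Glul, the glutamine synthetase of cells around the central vein, had 50.1, 113 and 111 FPKM, lowest in replicate 1. Among genes typical of the periportal zone, 9 of 17 were lowest in replicate 2 (52.9%, against 29.8% of all genes) and 6 of 17 past 2-fold. Among those of the pericentral zone 8 of 13 were lowest in replicate 1 (61.5%, against 38.7%) and 5 of 13 past 2-fold. Leaving out each library in turn gave 2 to 5 of the 17 and 1 to 4 of the 13, the lowest counts being those without replicate 3 for the periportal and without replicate 1 for the pericentral genes. The periportal genes include Arg1, Asl, Ass1, Cps1 and Gls2 of the urea cycle list, and the pericentral genes include Glul. The counts of these lists are therefore not separate observations. The pericentral transcription factor Tbx3 had 2.15, 9.20 and 1.88 FPKM. Which part of the liver was sampled is not in the labels, and its part in these values was not tested.

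**Figure D5:**
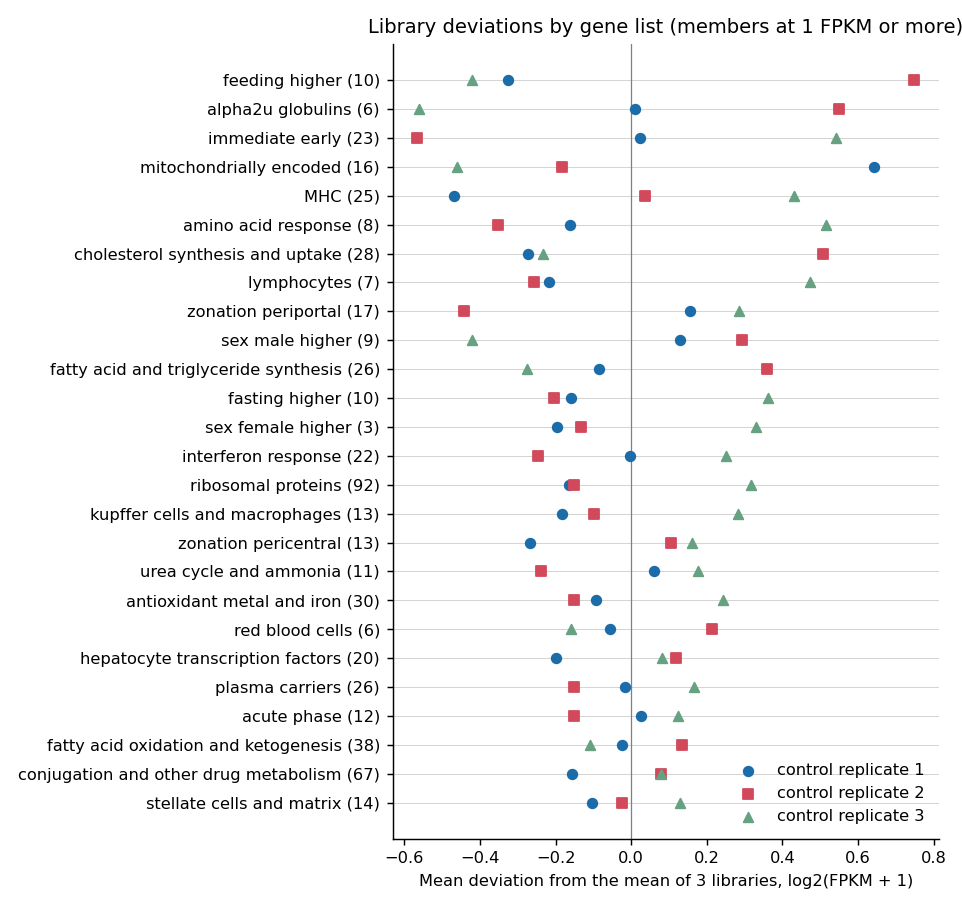
Mean deviation of each normal control library (symbols) from the mean of the 3, in log2(FPKM + 1), over the members at 1 FPKM or more (number in parentheses) of the 26 gene lists with the widest range. Replicate 2 lies at 0.75 for the feeding list and 0.51 for the cholesterol list, replicate 1 at 0.64 for the mitochondrially encoded genes, and replicate 3 at 0.54 for the immediate early genes.

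Drug metabolism varied within its lists. Of the conjugation and other drug metabolism genes, 23 of 67 were past 2-fold (34.3%). The 32 lowest in replicate 1 were 47.8%, against 38.7% of all genes. Without replicate 1 the count was 9 of 67 (13.4%, background then 4.34%), and without replicate 2 14 of 67. Aldh1a7 had 6.80, 0 and 11.5 FPKM, so a single list could hold members low in different libraries. Of 36 P450 genes 6 were past 2-fold and 2 or 3 with any library left out, with Cyp2b2, a phenobarbital-induced enzyme, at 28.3, 146 and 45.8 FPKM. MHC genes had 8 of 25 past 2-fold (32.0%), 17 highest in replicate 3 (68.0%, against 35.2% of all genes) and 16 lowest in replicate 1 (64.0%, against 38.7%). Cd74, the chaperone of class II molecules, had 91.1, 115 and 252 FPKM and RT1-Bb, a class II chain, 1.28, 5.35 and 9.91 FPKM. Without replicate 1, and likewise without replicate 3, 3 of the 25 were past 2-fold. B2m, the light chain of class I molecules, was instead highest in replicate 1, with 973, 926 and 732 FPKM.

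Kupffer cell and lymphocyte markers were mostly highest in replicate 3. The 10 neutrophil markers were too low to be ordered, with only 1 at 1 FPKM or more. They summed to 3.72 FPKM in replicate 1, 3.04 FPKM in replicate 2 and 2.37 FPKM in replicate 3. Their share of the reads had another order, with 0.0002598%, 0.0002046% and 0.0002783%, highest in replicate 3. Of 13 Kupffer cell and macrophage markers at 1 FPKM or more 11 (84.6%) were highest in replicate 3, against 35.2% of all genes, with Clec4f given above and Cd68, a lysosomal protein of macrophages, at 23.1, 22.3 and 40.9 FPKM. The exceptions were Cd14, a receptor for bacterial lipopolysaccharide, at 51.8, 35.5 and 27.9 FPKM, and Mrc1, the mannose receptor, at 9.72, 7.12 and 7.16 FPKM. Members past 2-fold were 3 of 13, and 1 of 13 without replicate 3 or without replicate 1. All 7 lymphocyte markers at 1 FPKM or more were highest in replicate 3, such as the chemokine Ccl5 with 6.36, 3.98 and 22.6 FPKM (2 of 7 past 2-fold, 0 of 7 without replicate 3). The 18 listed lymphocyte markers summed to 27.0 FPKM in replicate 1, 27.0 FPKM in replicate 2 and 56.8 FPKM in replicate 3. Interferon response genes were highest in replicate 3 in 15 of 22 (68.2%). In replicate 2, 15 of the 22 were lowest (68.2%, against 29.8% of all genes), and in replicate 1 6 were (27.3%, against 38.7%). The leading members were instead lowest in replicate 1. Ifi27 had 415, 616 and 1024 FPKM and Bst2, an antiviral membrane protein, 101.2, 150.2 and 321.3 FPKM. Of these 22 genes 5 were past 2-fold, 1 of them without replicate 3 and 2 without replicate 1. Ribosomal protein genes were highest in replicate 3 in 76 of 92 (82.6%), mostly by small steps. Past 2-fold were 12 of 92, and 3 of 92 without replicate 3 or 5 of 92 without replicate 1. The part of cell composition in the class II, C1q and interferon values was not tested.

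Some lists had few members past 2-fold or none. No member was past 2-fold among 43 genes of the proteasome and ubiquitin list, and 1 of 63 genes of the translation list and 2 of 85 nuclear respiratory chain genes were. None of 13 markers of sinusoidal endothelium was either. These are too few to set apart from the background of 8.94%, and their median SD was 0.19. The proteasome list had a median SD of 0.17 and the protease inhibitors one of 0.15, against 0.23 over all genes, although 2 of 20 protease inhibitors were past 2-fold, a share near the background of 8.94%. The smallest SD at a mean of 50 FPKM or more was that of Clpp, a mitochondrial protease subunit, with 51.4, 51.7 and 52.2 FPKM (SD 0.01 on the log2 scale, below the 0.05 of counting alone). Mpc2, a subunit of the mitochondrial pyruvate carrier, had 296, 297 and 292 FPKM, and Pgk1, of glycolysis, 130, 132 and 133 FPKM. Serpinc1, encoding antithrombin, held 764, 757 and 781 FPKM, and Acox2, of bile acid side chain oxidation, 183, 191 and 185 FPKM. These were chosen as the smallest of many values, so a low SD over 3 libraries does not make a gene steady in general.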

How the data were processed

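Liver RNA of 3 normal control libraries was analysed. Per the labels' protocols, polyadenylated RNA was taken up on oligo(dT) beads, fragmented, copied with random primers with a strand-marked second strand, and amplified by PCR. Values were used in FPKM, as deposited in 1 sheet that holds every gene and library. The submitters' processing notes name Bowtie2 2.2.3, HISAT2, TopHat2, HTSeq 0.6.0, DESeq, DESeq2 and the build Rnor_6.0, with no role or order. The sources used here do not give how FPKM was made or whether strand was used in counting, so overlapping, antisense and multicopy genes are uncertain.

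Gene lengths and whole reads were recovered from the FPKM steps of all 9 deposited value columns (tolerance 0.001 of a read). All 146433 values above 0 came out whole (100%), and the recovered reads made up 99.991% to 99.994% of each total. They served for depth, read shares and the counting SD, which covers counting error only and takes PCR copies as independent. No value column lacked a sample (0). The levels are means ± SD over the 3 libraries, and spread is the SD of log2(FPKM + 1) for genes with a mean of at least 1 FPKM. Past 2-fold means that the highest FPKM was at least 2 times the lowest after adding 1. No test was made, since there is 1 group.

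Members, lists and rules were chosen with earlier results of these data known. There were 46 lists (40 in which no gene is counted more than once, 6 overlapping) of 766 symbols and 23 name patterns. By symbol 708 matched, 10 more through RefSeq names, and 48 did not. Genes that a pattern matched by name only (S6 kinases, for example) were taken out. Genes named are the 30 highest, the 20 with the largest SD at a mean of 5 FPKM or more, the 10 with the largest at 100 or more, the 10 with the smallest at 50 or more, up to 4 highest and 2 most variable of each list, and defining markers. Others were chosen after their values were seen: members of gene clusters, Apob, Fasn, Srebf2, Pdk4, Fos, Fosb, Mrc1 and the genes under other observations. The alternatives were each library left out, a pseudocount of 0.1, a minimum mean of 5 FPKM or none, median-of-ratios scaling, read shares, and leaving out mitochondrially encoded or short genes. The calculation was tested on simulated data. Python 3.11.15 with pandas 2.3.3, numpy 2.4.6 and matplotlib 3.10.9 was used. Some genes the rule names are not reported here.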

Additional observations from a re-analysis of the deposited data

How the results depend on the processing

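The share of the 6 secreted protein lists was 34.6% of the summed FPKM, 36.55% of the recovered reads and 37.74% of the summed FPKM without mitochondrially encoded genes. The count of genes past 2-fold was 940. It was 1484 with a pseudocount of 0.1 and 565 with a minimum mean of 5 FPKM, and leaving out each library in turn gave 459 to 532, a lower count by construction since 2 libraries have a smaller range than 3. Without the minimum it was 1125 and with median-of-ratios scaling 942. Of the other main values and their alternatives, 22 stayed within the spread between libraries or within 1.5 times the count, and of the values of single lists and genes 464 did and 141 moved. List deviations after scaling and list counts with each library left out were chosen after seeing the data. After scaling, the mean deviation changed sign only for coagulation in replicate 1 and liver endothelium in replicates 2 and 3, all near 0. No paired analysis was possible because there is 1 group, its replicate numbers follow accession order only, and no result comes from a test. Depth limits mainly genes below 5 FPKM, where the median counting SD was 0.10 on the log2 scale against an observed 0.22.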

Other observations

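Several abundant transcripts stood under names that hide their family. The gene under the symbol Cyp2c7 had 0, 0.154 and 0 FPKM in replicates 1, 2 and 3, while AABR07004549.1, whose deposited best match is Cyp2c7, had 1537, 1112 and 953 FPKM. LOC100360095, of the urinary protein family, had 1818, 947 and 742 FPKM, and the family member Rup2 2498, 2273 and 2512 FPKM. LOC100360087, whose deposited match is a ferritin light chain, had 1130, 1445 and 1624 FPKM. In all, 24 genes were listed under a calendar date instead of a symbol, and 17 of them had a mean of 1 FPKM or more.

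The large share of short genes in replicate 1 rested on very few of them. AABR07015081.1, a gene of 57 bases on chromosome 14 (46655342 to 46655398, build Rnor_6.0), had 24117, 470 and 711 FPKM, from 22223, 445 and 728 reads. With AABR07015080.1, AABR07063425.1 and AABR07063425.2 it held 5.57% of the summed FPKM in replicate 1, 0.217% in replicate 2 and 0.329% in replicate 3, but 0.188%, 0.00652% and 0.0105% of the reads. The genes lie in pairs, 720 bases apart on chromosome 14 and 400 bases apart on chromosome 6. Near each pair lies another short gene. AABR07015079.1, 2222 bases from AABR07015080.1, had 303, 119 and 14.8 FPKM. AABR07063421.1, 5540 bases from AABR07063425.2, had 250, 156 and 47.7 FPKM. All are annotated as miRNA. The deposited best nucleotide match was a predicted collagen alpha-1(I) chain-like mRNA for AABR07015081.1, AABR07063425.1 and AABR07063425.2. It was an rRNA unit for AABR07015080.1, AABR07015079.1 and AABR07063421.1. FPKM weighs a read by gene length, so a gene this short takes a share of the sum far above its share of reads.

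The neighbour of Mt2A on chromosome 19, AC128848.1, had 660, 233 and 1410 FPKM, the same order as Mt2A, and both lie within 6.62 kb (11302125 to 11308740).

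The labels used here give no sex. Y-linked genes, chosen after their values were seen, were present in all 3 libraries, with Eif2s3y at 12.8, 10.1 and 10.9 FPKM and Kdm5d at 3.15, 2.13 and 1.796 FPKM. Cyp2c11, which male rat liver expresses more than female, had 489, 380 and 374 FPKM. Prlr, the prolactin receptor, listed among genes higher in females, had 3.35, 0.223 and 6.91 FPKM. All 3 genes of that list at 1 FPKM or more were past 2-fold (background 8.94%), and 1 or 2 of the 3 with any library left out. Of 9 genes known as higher in males, 7 were lowest in replicate 3 (77.8%, against 31.5% of all genes). Mup4 and Cyp4a2 each stand more than once among these 9.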
